A study of Mus musculus with 6 samples.

Results

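The astrotactins (Astn1 and Astn2) and the CUB and sushi multiple domain proteins (Csmd1, Csmd2 and Csmd3) form 2 small families of neuronal membrane proteins whose genes are among the longest of the mouse genome. These 5 genes, of 55401 in the count files, were followed in RNA-seq of the dorsal hippocampus after an antisense oligonucleotide (ASO) against the lncRNA Snhg11. They were picked by family from earlier results of this same comparison, in which long genes of these families stood out, so that their fold changes are given below as a description, without a p-value, and support nothing further. All 5 passed the filter on low counts, which left 19969 genes.

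The 6 libraries came from WT mice, littermates of the Ts65Dn line on a B6EiC3 background, which received 50 μg of ASO per hemisphere in the dorsal dentate gyrus (DG) at 4 months of age. According to the methods of the study, the hippocampus 3 days later was cut into a dorsal and a ventral part and RNA of the dorsal part was sequenced from ribo-depleted total RNA, so the tissue holds more than the injected DG. The groups were 3 samples given Control-ASO, which has the bases of the active ASO in scrambled order, and 3 given Snhg11-ASO, a single sequence with 2′MOE sugars. The study gives the injected mice of this tissue as males, and the sample labels give no sex.

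Astrotactins carry a membrane attack complex/perforin (MACPF) domain. Astn1 acts in the adhesion of migrating young neurons to glial fibres, and Astn2 regulates how much Astn1 reaches the cell surface and takes part in the turnover of synaptic membrane proteins. The CSMD proteins have a long extracellular chain of alternating CUB and sushi domains. Sushi domains are the building block of many complement regulators, Csmd1 is known as an inhibitor of complement, and Csmd3 is known for a role in dendrite development.

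In the coding sequence the relatives were far from identical. The coding regions of the longest coding transcripts (GENCODE M21), Astn1-205 with 3909 bases and Astn2-201 with 4059 bases, were 64.5% identical over their aligned bases. For the CSMD genes identity was 67.5% between Csmd1-201 (10695 bases) and Csmd2-205 (10836 bases), 65.4% between Csmd1-201 and Csmd3-209 (11124 bases), and 62.9% between Csmd2-205 and Csmd3-209. The longest stretches shared by 3 of these pairs are shown (that of Csmd2 and Csmd3 had 25 bases). A sequencing read had 50 bases and the longest of these stretches 44, so no full read could lie wholly within one. Capitals mark the shared stretch and lower case the 12 bases on either side, read 5′ to 3′ on the strand of the gene, and coordinates are those of the whole printed sequence, flanks included. The stretch of 22 bases shared by the astrotactins lies in exon 3 of both, in the sequences at chr1:158502160-158502205 (plus strand, GRCm38) and chr4:66185357-66185402 (minus strand).
Astn1: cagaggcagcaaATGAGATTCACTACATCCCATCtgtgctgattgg
Astn2: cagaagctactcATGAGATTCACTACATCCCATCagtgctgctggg

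The longest stretch common to Csmd1 and Csmd3 had 44 bases. It crosses the junction of exons 21 and 22 in Csmd1 (printed with its flanks, chr8:16196080-16196125 and chr8:16190071-16190092, minus strand) and that of exons 22 and 23 in Csmd3 (chr15:47947979-47948024 and chr15:47914084-47914105, minus strand).
Csmd1: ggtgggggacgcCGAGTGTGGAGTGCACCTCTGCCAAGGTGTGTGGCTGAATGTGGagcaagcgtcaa
Csmd3: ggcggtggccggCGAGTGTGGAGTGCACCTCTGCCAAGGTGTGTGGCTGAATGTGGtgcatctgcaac

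Between Csmd1 and Csmd2 the longest shared stretch had 23 bases, in exon 18 of Csmd1 (with flanks, chr8:16211765-16211811, minus strand) and exon 24 of Csmd2 (chr4:128414273-128414319, plus strand).
Csmd1: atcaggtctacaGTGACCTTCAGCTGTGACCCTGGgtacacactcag
Csmd2: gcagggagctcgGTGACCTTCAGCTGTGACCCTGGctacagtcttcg

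No stretch of 50 bases was shared between members in any of their annotated transcripts. Astn1, Astn2, Csmd1 and Csmd2 shared 0 such stretches with the transcripts of any other gene, and Csmd3 shared 52 of 16964 (0.307%), with 676 other genes. Reads on the strand opposite to a member made up between 0% and 0.776% of its strand-resolved counts in any library, which bounds the share of antisense reads.

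The Control-ASO libraries held 28951250 to 34293344 counts on genes and the Snhg11-ASO libraries 38556524 to 43997537. Every Snhg11-ASO library was thus deeper than every control, and the part of this difference in the values below was not tested. Snhg11 was at 551, 436 and 209 CPM (counts scaled to the library total over the genes tested, with TMM factors) in the controls (replicates 1, 2 and 3, the order used throughout) and at 139, 65.4 and 69.4 CPM in the Snhg11-ASO samples. The groups did not overlap (log2 fold change −2.13, SE 0.43, adjusted p = 0.395 in edgeR's quasi-likelihood test and 6.2e-05 in DESeq2). Among markers of the cell types of this tissue, all of which were detected in every library, the summed level of 6 neuronal markers was 2938 to 3078 CPM in Control-ASO and 2590 to 2872 CPM in Snhg11-ASO, and that of 3 markers of oligodendrocyte precursors 112 to 122 and 61.1 to 111 CPM. The sums for granule cells (6 markers, 315 to 373 and 340 to 428 CPM), CA1 (3 markers, 147 to 207 and 172 to 215 CPM), CA3 (3 markers, 32.5 to 54.4 and 49.99 to 55.3 CPM), astrocytes, oligodendrocytes, microglia and endothelial cells overlapped between the groups, and the 5 choroid plexus markers ranged from 35.6 to 1856 CPM over the 6 libraries. Counted singly, markers lower and higher in Snhg11-ASO were 5 and 1 for neurons and 4 and 2 for granule cells. For CA1 they were 1 and 2, for CA3 0 and 3, for astrocytes 3 and 3, and for oligodendrocytes 0 and 5. For precursors they were 3 and 0, for microglia 4 and 1, for endothelial cells 1 and 3, and for choroid plexus 5 and 0. Snhg11-ASO replicate 1 had the lowest sums of neuronal (2590 CPM), astrocyte (3987 CPM), precursor (61.1 CPM) and microglial (74.6 CPM) markers of all 6, and the values of the members are given with and without it. The part of these differences in the values of the members was not tested, and in tissue of mixed cells fewer cells of a type and less RNA per cell cannot be told apart.

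Astn2 (ENSMUSG00000028373) spans 1024 kb of the minus strand of chromosome 4, from 65380803 to 66404611, of which 0.484% (4.96 kb in 23 blocks) is exon. It was counted at 28.4, 31.3 and 30.9 CPM in the controls and at 16.8, 13.9 and 16.3 CPM in the Snhg11-ASO samples. Every Snhg11-ASO sample was about as far below the controls as the others, and none reached the lowest control. The mean went from 30.2 ± 1.59 (SD, n = 3) to 15.7 ± 1.54 CPM (SD, n = 3), which is 51.9% of Control-ASO, with a log2 fold change of −0.95 (SE 0.12) and of −0.997 without Snhg11-ASO replicate 1.

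Its paralogue Astn1 (ENSMUSG00000026587) is shorter, with a span of 330 kb on the plus strand of chromosome 1 (158362273 to 158691781) and 9.84 kb of exon in 28 blocks. It was at 296, 269 and 287 CPM with Control-ASO and at 190, 292 and 243 CPM with Snhg11-ASO. The groups overlapped, since Snhg11-ASO replicate 2 lay among the controls while replicate 1 was the lowest of all. The means were 284 ± 14.1 and 241 ± 51.1 CPM (SD, n = 3 each), or 85.1% of Control-ASO, and the log2 fold change of −0.23 (SE 0.16) was −0.09 without Snhg11-ASO replicate 1.

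Csmd1 (ENSMUSG00000060924) had the largest span of the 5, 1643 kb on the minus strand of chromosome 8 (15892537 to 17535586), of which 19.0 kb in 74 blocks is exon. It was at 253, 218 and 222 CPM with Control-ASO and at 161, 135 and 115 CPM with Snhg11-ASO. All 3 Snhg11-ASO samples were below all controls, replicate 3 the furthest. The mean went from 231 ± 19.3 to 137 ± 23.1 CPM (SD, n = 3 each), 59.3% of Control-ASO, with a log2 fold change of −0.75 (SE 0.14) and of −0.88 without Snhg11-ASO replicate 1.

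Csmd3 (ENSMUSG00000022311), with a span of 1211 kb on the minus strand of chromosome 15 (47580637 to 48792063) and 16.9 kb of exon in 73 blocks, was at 134, 118 and 117 CPM with Control-ASO and at 96.9, 110 and 89.2 CPM with Snhg11-ASO. The groups were apart, but Snhg11-ASO replicate 2 was close to the lower controls. The means were 123 ± 9.42 and 98.6 ± 10.3 CPM (SD, n = 3 each), 80.4% of Control-ASO, and the log2 fold change was −0.31 (SE 0.11), or −0.30 without Snhg11-ASO replicate 1.

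Csmd2 (ENSMUSG00000028804) has the shortest span of the CSMD genes, 580 kb on the plus strand of chromosome 4 (127987857 to 128567656), with 17.1 kb of exon in 74 blocks. It was at 97.2, 64.0 and 54.4 CPM with Control-ASO and at 75.7, 59.5 and 43.8 CPM with Snhg11-ASO. The groups overlapped, and in both groups replicate 1 was the highest and replicate 3 the lowest. Between samples of the same number Csmd2 was lower with Snhg11-ASO, but the labels do not give these samples as pairs. The means were 71.8 ± 22.5 and 59.7 ± 16.0 CPM (SD, n = 3 each), 83.1% of Control-ASO, with a log2 fold change of −0.27 (SE 0.27) that was 0.0016 without Control-ASO replicate 1 and −0.47 without Snhg11-ASO replicate 1.

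**Figure D1:**
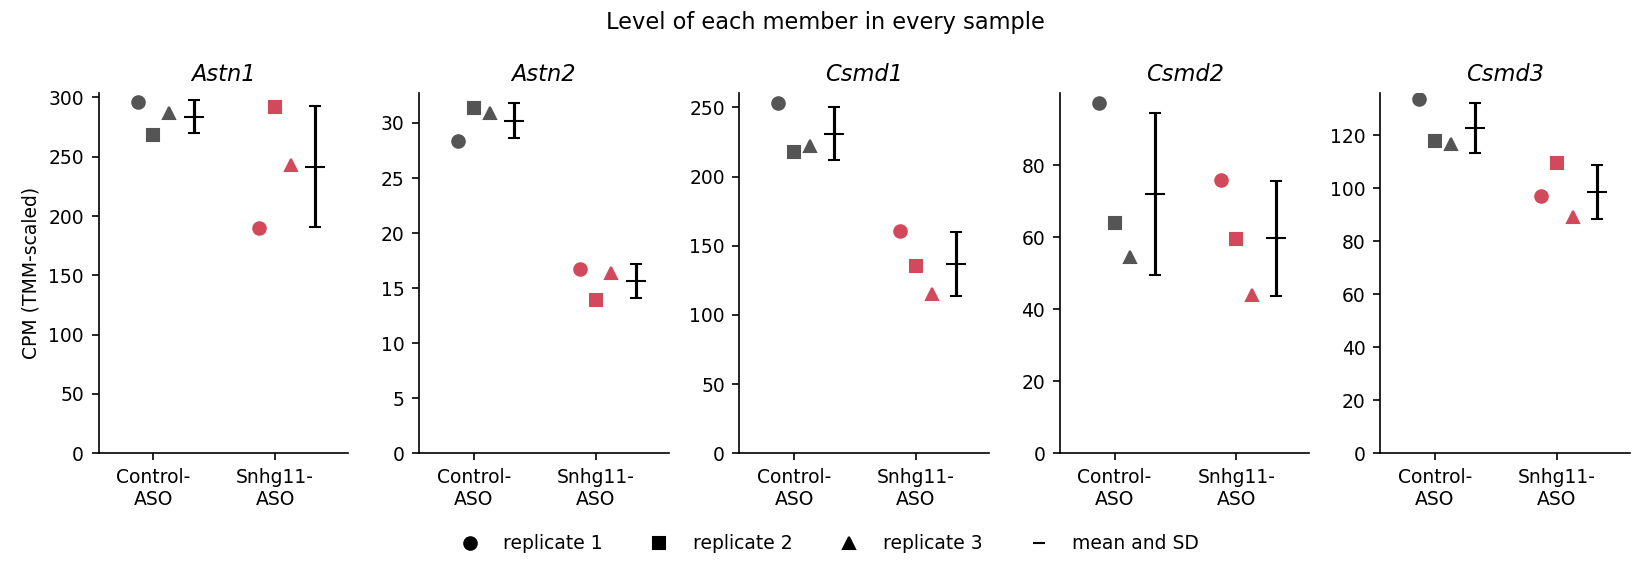
Level of the 5 genes (y axes, CPM scaled by TMM, each starting at 0) in the 3 Control-ASO (grey) and 3 Snhg11-ASO (red) samples, with symbols for the replicate number and the mean and SD of each group beside the points. The Snhg11-ASO samples lie below all controls for Astn2, Csmd1 and Csmd3, and overlap with them for Astn1 and Csmd2. The labels do not give samples of the same number as pairs.

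All Snhg11-ASO samples were thus below all controls for 3 members (Astn2, Csmd1 and Csmd3), and for 7.7% of all genes tested. At an adjusted p under 0.05, edgeR called 0 of the 5 and 0% of all genes, and at an unadjusted p under 0.05 it called 3 of the 5 and 8.11% of all genes. DESeq2 called 2 of the 5, Astn2 and Csmd1, and 1.29% of all genes (0.796% lower and 0.496% higher), and 3 of the 5 and 9.17% of all genes at an unadjusted p under 0.05. The log2 fold change was below 0 for all 5 members and for 48.3% of all genes, with a median of 0.01 over the latter. Because the members were chosen from this comparison, nothing is read from these counts.

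Levels of different genes were compared per kilobase of exon. In Control-ASO, Astn1 stood highest with 28.8 ± 1.43 CPM per kb (SD, n = 3), followed by Csmd1 (12.1 ± 1.02), Csmd3 (7.27 ± 0.558), Astn2 (6.09 ± 0.320) and Csmd2 (4.21 ± 1.32). No neighbours in this order overlapped, although Csmd2 reached 5.69 CPM per kb in 1 control and Astn2 was as low as 5.72. In Snhg11-ASO the order was Astn1 (24.5 ± 5.19), Csmd1 (7.20 ± 1.21), Csmd3 (5.84 ± 0.611), Csmd2 (3.50 ± 0.935) and Astn2 (3.16 ± 0.311). There the ranges over samples of Csmd1 and Csmd3 overlapped, as did those of Csmd2 and Astn2, although within each library Csmd1 was above Csmd3.

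The ratio of 2 relatives in the same library does not depend on the scaling of that library. The ratio of Astn2 to Astn1 per kilobase of exon was 0.190, 0.231 and 0.214 in the Control-ASO group and 0.175, 0.0946 and 0.133 after Snhg11-ASO. The groups did not overlap, and the Snhg11-ASO mean was 63.5% of the Control-ASO mean. Replicate 1 was the nearest to the controls, being the lowest of its group for Astn1 and the highest for Astn2. Astn2 made up 17.5% ± 1.42 of the per-kilobase sum of both astrotactins in Control-ASO and 11.8% ± 3.14 in Snhg11-ASO (SD, n = 3 each).

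For Csmd1 against Csmd3 the ratio was 1.68, 1.64 and 1.69 in the Control-ASO group and 1.47, 1.09 and 1.14 after Snhg11-ASO. The controls were within a narrow band and all Snhg11-ASO samples were below it, with a mean at 74.0% of the Control-ASO mean. Csmd1 spans 1643 kb and Csmd3 1211 kb, and the part of span in this ratio was not tested. Csmd1 against Csmd2 gave 2.34, 3.05 and 3.67 in the Control-ASO group and 1.91, 2.04 and 2.35 after Snhg11-ASO, with 1 overlapping sample in each group. The ratio of Csmd3 to Csmd2 was 1.39, 1.86 and 2.17 in the Control-ASO group and 1.29, 1.86 and 2.06 after Snhg11-ASO. The Snhg11-ASO mean was 96.2% of the Control-ASO mean, and the spread between replicates was much larger than the distance between the groups.

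**Figure D2:**
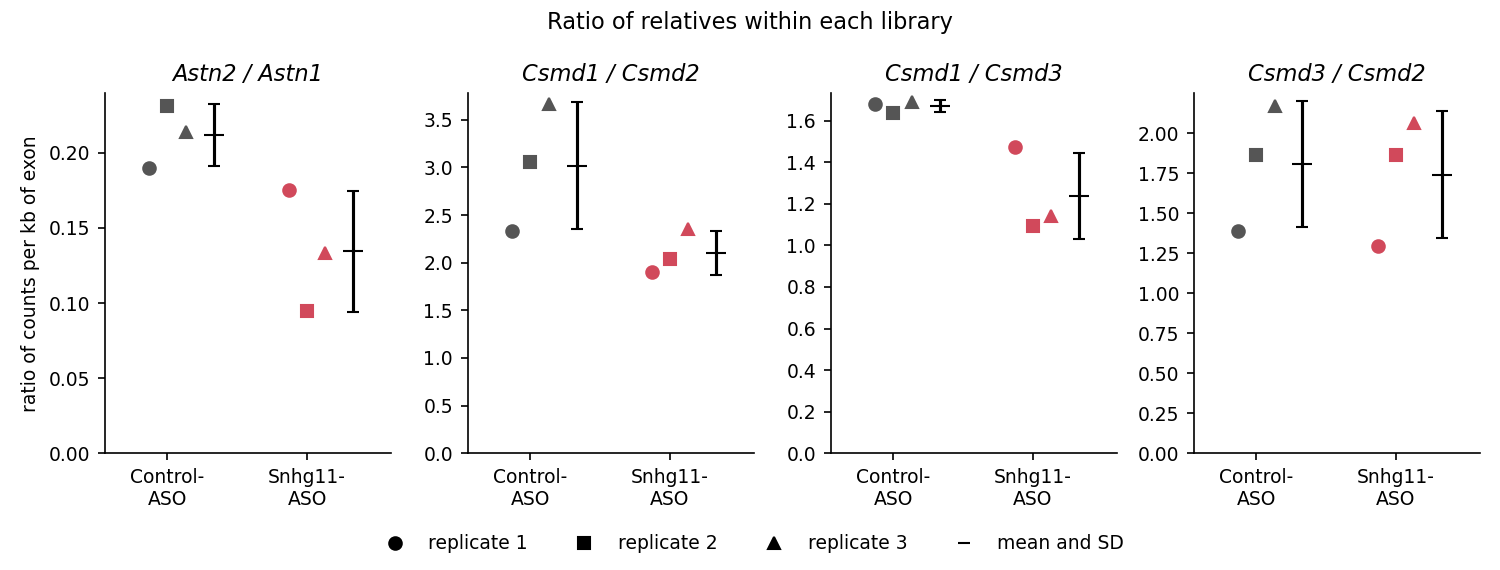
Ratio of counts per kb of exon between relatives (y axes, starting at 0) in each of the 3 Control-ASO (grey) and 3 Snhg11-ASO (red) libraries, with the mean and SD of each group. Astn2/Astn1 and Csmd1/Csmd3 are lower in every Snhg11-ASO library than in any control, Csmd1/Csmd2 overlaps in 1 sample of each group and Csmd3/Csmd2 differs by less than its spread.

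Summed by family, both astrotactins together had 314 ± 12.8 CPM in Control-ASO and 257 ± 49.7 CPM in Snhg11-ASO, and the 3 CSMD genes 425 ± 50.6 and 295 ± 43.6 CPM (SD, n = 3 each). Within the CSMD sum per kilobase, Csmd1 held 51.6% ± 2.10 in Control-ASO and 43.5% ± 1.90 in Snhg11-ASO. Over the same groups Csmd3 held 30.9% ± 1.29 and 35.6% ± 4.17, and Csmd2 17.6% ± 3.32 and 20.9% ± 2.70.

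Genomic span was then set beside these values, since the relatives differ in it more than in exonic length. Of 19945 tested genes with an annotated span, 8 were longer than Csmd1, 27 longer than Csmd3, 53 longer than Astn2, 158 longer than Csmd2 and 477 longer than Astn1. Over all these genes log2 fold change and span were hardly related (Spearman rho −0.02, across genes, which share libraries and are not independent). In bins of span the median log2 fold change was 0.02 for 15163 genes under 50 kb, 0.03 for 2329 genes of 50 to 100 kb and −0.02 for 1467 genes of 100 to 200 kb. It was −0.13 for 763 genes of 200 to 500 kb, −0.33 for 166 genes of 500 to 1000 kb and −0.48 for 57 genes over 1000 kb. The shift towards lower values was thus found in the long bins, where 70.1%, 88.6% and 94.7% of genes had a log2 fold change below 0.

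Each member was read against its own bin. Astn1, at −0.23, had 265 of 763 genes of 200 to 500 kb below it, and Csmd2, at −0.27, had 95 of 166 genes of 500 to 1000 kb below it. Among the 57 genes over 1000 kb, 7 were lower than Astn2, 16 lower than Csmd1 and 41 lower than Csmd3. Csmd3, with a span of 1211 kb, was therefore among the less shifted genes of its length, while Astn2, the shortest member of that bin, was among the most shifted. The next higher gene after Astn2 in this order was Fhit (−0.93). Those next to Csmd1 were Galntl6 (−0.76) and Ptprd (−0.75), a receptor phosphatase of synapses, and those next to Csmd3 were Prkg1 (−0.33), a cGMP-dependent kinase, and Rbms3 (−0.31). These neighbours, named after their values were seen, show only where in the bin a member lies.

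With the loess trend of each sample along span taken out, log2 fold changes were −0.62 for Astn2 and −0.34 for Csmd1. It was −0.08 for Astn1, −0.02 for Csmd2 and 0.04 for Csmd3, which thereby changed sign. The median of the 223 genes over 500 kb was −0.37 before and −0.09 after the removal.

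**Figure D3:**
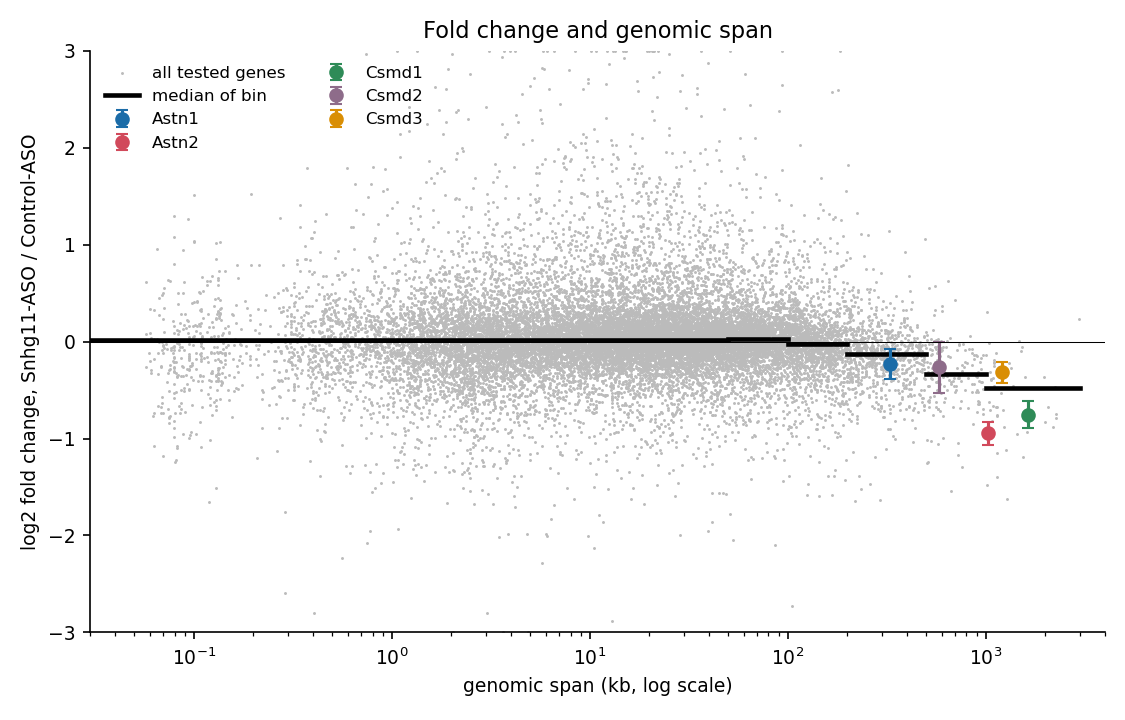
Log2 fold change of Snhg11-ASO over Control-ASO (y axis) against genomic span in kb (x axis, log scale) for 19945 tested genes (grey points), with the median of each span bin (black bars) and the 5 genes with their standard errors (coloured). Points of 31 genes beyond ±3 are drawn at the edge, the bin medians go down from 200 kb on, and Astn2 and Csmd1 lie below the median of their bin while Csmd3 lies above it.

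**Figure D4:**
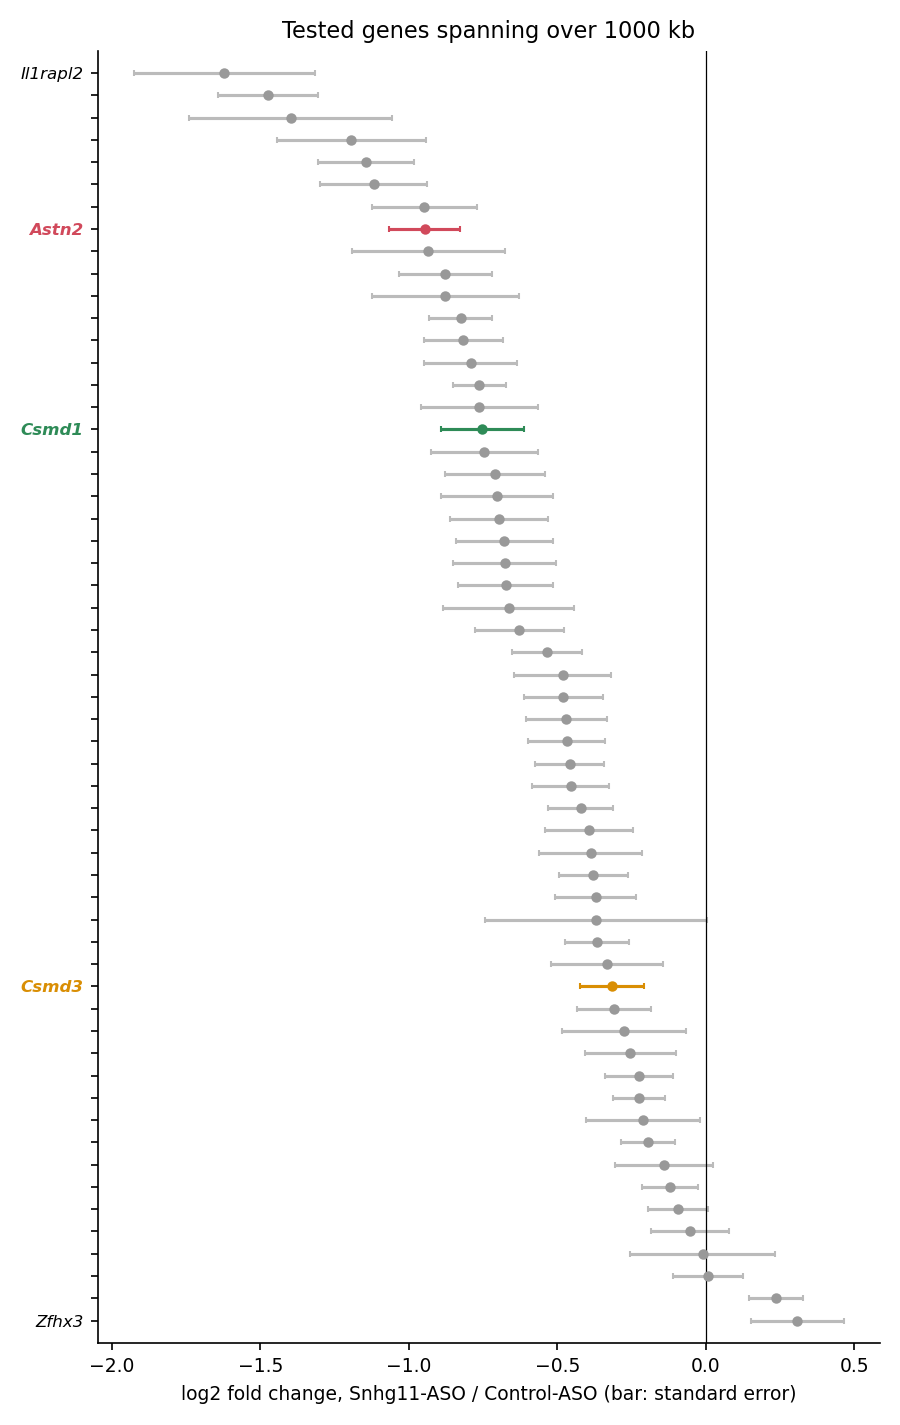
Log2 fold change (x axis, bars show the standard error) of the 57 tested genes spanning over 1000 kb, sorted from lowest to highest, 1 line per gene, with names only for the genes given here. Il1rapl2 is lowest at −1.62 and Zfhx3 highest at 0.31, with Astn2 (−0.95), Csmd1 (−0.75) and Csmd3 (−0.31) in colour.

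Inside the spans of the members lie 20 annotated genes, 7 of them on the strand of the member, and 6 of the 20 passed the filter on low counts. Trim32, a ubiquitin ligase encoded within an intron of Astn2 on the opposite strand, was at 110, 120 and 126 CPM with Control-ASO and at 120, 121 and 122 CPM with Snhg11-ASO. Its groups overlapped and its log2 fold change was 0.03 (SE 0.08), beside −0.95 for the gene around it.

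The unconfirmed (TEC) gene 3110080E11Rik lies within Csmd1, on the same strand and with no overlap of exons, from 16912706 to 16916182 of chromosome 8. It was at 29.0, 29.6 and 31.5 CPM with Control-ASO and at 16.6, 17.9 and 17.1 CPM with Snhg11-ASO. The groups were apart, as for Csmd1, with a log2 fold change of −0.80 (SE 0.10) beside −0.75 for Csmd1. A read from an intron of Csmd1 and one from this gene cannot be told apart, since they share the strand and total RNA was sequenced.

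The other tested genes within members had few counts. Within Astn1, the TEC genes Gm37367 and Gm37861 had log2 fold changes of −0.39 (SE 0.21, groups apart) and −0.05 (SE 0.25, groups overlapping). The pseudogene Gm16300 within Csmd3 had 132 counts over the 6 libraries and a log2 fold change of −0.31 (SE 0.29), and Mir3106 within Csmd1 had 41 counts and −1.08 (SE 0.78), with 5, 11 and 10 counts in the Control-ASO group and 11, 3 and 1 after Snhg11-ASO. For the last 2 genes a change of the size seen for Csmd3 was not detectable at this depth.

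The members also differed in how they varied between samples of a group. On the log2 scale the pooled SD within groups was 0.41 for Csmd2, 0.23 for Astn1, 0.19 for Csmd1, 0.13 for Csmd3 and 0.12 for Astn2. Over the 6 deviations from the group means, Pearson's r was 0.90 between Csmd1 and Csmd2, 0.68 between Csmd2 and Csmd3 and 0.53 between Csmd1 and Csmd3, so the CSMD genes tended to be high in the same libraries. It was −0.85 between Astn1 and Astn2 and −0.88 between Astn2 and Csmd3. These values rest on 6 libraries that differ in depth and in choroid plexus markers, and are a description only. The part of these differences in the correlations was not tested. The opposite deviations of the astrotactins came mostly from Snhg11-ASO replicates 1 and 2, in which Astn1 deviated by −0.33 and 0.29 and Astn2 by 0.10 and −0.17.

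**Figure D5:**
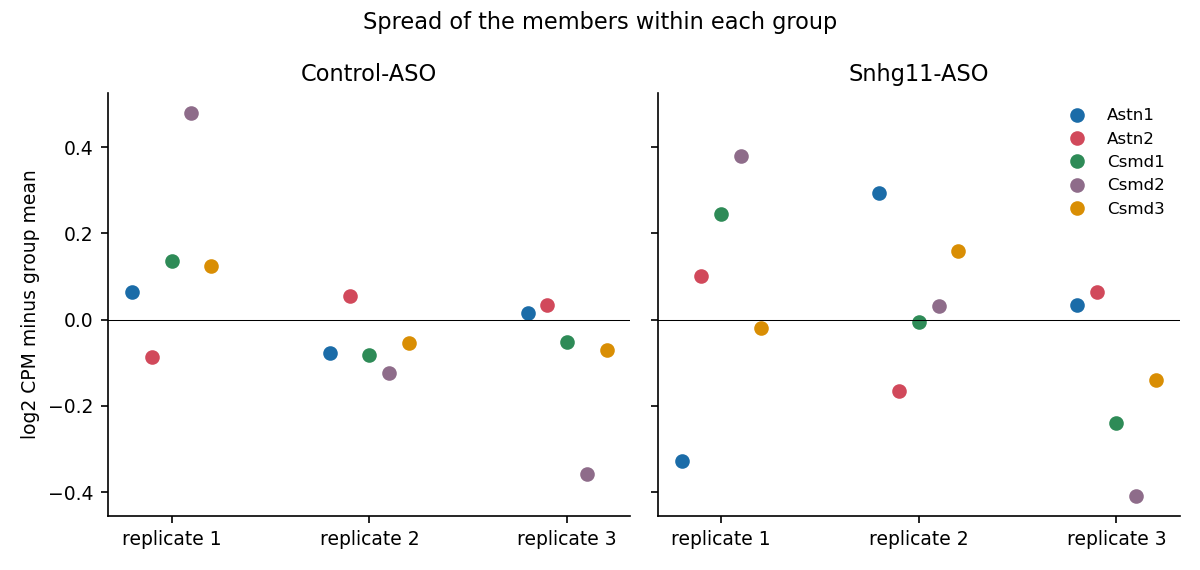
Deviation of each of the 5 genes from its group mean (y axis, log2 CPM) in the 3 replicates of Control-ASO (left) and Snhg11-ASO (right). Csmd2 has the widest spread, with replicate 1 highest (0.48 and 0.38) and replicate 3 lowest (−0.36 and −0.41) in both groups.

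Over all 6 samples, the genes most like each member were sought among 16282 genes with a mean of at least 1 CPM, by Pearson's r of log2 CPM. Such an r runs over both groups and so includes the difference between them. For Csmd1 these were Ptprn2 (r = 0.997, span 791 kb), Gm44518 (0.993, 4.37 kb) and Ctnnd2 (0.993, 857 kb). Ptprn2 is a phosphatase-like protein of secretory vesicles and Ctnnd2 a neuronal catenin. For Astn2 they were Qrsl1 (0.992, 27.6 kb), Gnal (0.992, 139 kb), a G protein alpha subunit, and the pseudogene Gm11653 (0.991, 1.01 kb). Astn1 was closest to Agbl5 (0.996, 18.3 kb), a tubulin deglutamylase, Gm19938 (0.994, 11.6 kb) and Gm45263 (0.991, 1.38 kb). Csmd2 was closest to Lrp8 (0.995, 74.6 kb), a reelin receptor, Mir8095 (0.994, 0.129 kb) and Rnf123 (0.993, 31.8 kb). Csmd3 was closest to Gm42438 (0.990, 0.974 kb), Ano8 (0.985, 9.9 kb) and Gm44806 (0.984, 2.3 kb). With 6 samples such values are common, and r exceeded 0.95 for 138, 27, 65, 62 and 66 genes in the order Astn1, Astn2, Csmd1, Csmd2, Csmd3.

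Relatives by domain were then examined. Of 36 genes with CUB or sushi domains outside the CSMD family, 35 were tested, none longer than 215 kb. Their median log2 fold change was 0.05 (0.01 for all genes), 14 were lower and 21 higher, and edgeR called 0 of them, with 0 lower and 3 higher at an unadjusted p under 0.05 (4.43% and 3.68% of all genes), and DESeq2 called 0. The seizure-related genes Sez6, Sez6l and Sez6l2, which resemble the CSMD genes in domains and act at synapses, had log2 fold changes of 0.33 (SE 0.10), −0.15 (SE 0.22) and −0.19 (SE 0.09), the last with groups apart. Sez6 was at 90.2, 93.0 and 80.6 CPM in Control-ASO and 120, 107 and 106 CPM in Snhg11-ASO, with no overlap. Neto1 (−0.12) and Neto2 (0.04), auxiliary subunits of kainate receptors, overlapped between groups. Of the others, Bmp1 (0.68), a protease that processes procollagen, Kremen1 (0.60), a Wnt pathway receptor, and Adgrg6 (0.37), an adhesion receptor, had groups that did not overlap, all higher in Snhg11-ASO, as had Lrp3 (−0.15), named after its values were seen, which was lower. In all, 4 of the 35 were apart and higher and 2 apart and lower (7.73% and 7.7% of all genes).

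Of 10 genes with a MACPF domain outside the astrotactins, 4 were tested, and the terminal complement genes and perforin were not among them. The median of the 4 was 0.21, and edgeR called 0, with 1 lower and 0 higher at an unadjusted p under 0.05 (4.43% and 3.68% of all genes), and DESeq2 called 0. The BRINP genes, which act in neurons, gave 0.42 (SE 0.23) for Brinp1, 0.00 (SE 0.12) for Brinp2 and −0.56 (SE 0.21) for Brinp3. The other tested gene, Mpeg1, had the largest value, 0.75 (SE 0.46), with groups that overlapped. Brinp3 was at 20.4, 18.7 and 29.7 CPM with Control-ASO and at 13.2, 15.9 and 17.6 CPM with Snhg11-ASO, with no overlap. It is the longest of these 4, with a span of 408 kb, which exceeds that of Astn1.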

How the data were processed

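RNA-seq counts per gene of 6 dorsal hippocampus samples were analysed. Per the labels and the methods of the study, the authors aligned paired reads to mm10 (GRCm38) with STAR 2.5.2a, and the deposited counts are those STAR writes, without normalization or pooling, although the methods name Rsubread. Counts of the reverse strand were used. Summary lines that name no gene held 43.5% to 51.4% of read pairs and were left out. STAR's counts leave out reads that map to several places. The study removed 1 Snhg11-ASO sample that it does not name, and all 3 were kept here.

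Symbols, spans and exons came from GENCODE M21 (55141 of 55401 identifiers matched). Genes were filtered with filterByExpr (minimum count 10), scaled with TMM and compared between groups by the quasi-likelihood test of edgeR 4.0.16 in R 4.3.3, with p-values adjusted after Benjamini and Hochberg (threshold 0.05). Standard errors (SE) were derived from each fold change and its F statistic, as |log2 fold change|/√F. Fold changes and SE printed beside an adjusted p of DESeq2 are those of edgeR. For log2 CPM the prior count was 2. The tests were run on simulated data with planted changes larger than those of the members. That check does not show how well changes of the members' size are found. The 5 members and the lists were chosen with earlier results of these data known, and the lists were written from general knowledge. Besides the members and Snhg11, genes were named if called in a list, else if among its 4 largest changes with groups apart, if well known founders of a list, if most correlated with a member, or if nested in one.

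The replicate numbers of the labels were checked for pairing: after subtracting group means, samples sharing a number correlated with r of 0.297, 0.179 and 0.103. All exceed 0.1, so a fit with the numbers as pairs was added as an alternative, on the values alone. Correlations between samples with different numbers were not computed, so these r have no baseline, and the labels state no pairing. The main fit had no term for the replicate number. The methods give 3 mice per group. The labels do not say that samples are separate mice, so p-values measure the spread between these samples. Alternatives were DESeq2 1.42.0, edgeR with the size factors of DESeq2 or with upper-quartile factors, both strands counted together, no filter, the replicate block, removal of each sample's loess trend with span (also with the block), and leaving out each sample.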

Additional observations from a re-analysis of the deposited data

How the results depend on the processing

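For 14 results 15 alternatives were computed, 6 of them leaving out 1 sample each. With all genes, edgeR called 0 throughout except for 2 without Snhg11-ASO replicate 1 (range 0 to 2), and DESeq2 called 258, of which 2 were members. EdgeR called 0 members with all samples and without each sample, and DESeq2 was not refitted without samples. DESeq2 also called Snhg11 (−2.12). Removing the trend with span moved Astn2 to −0.62, Csmd1 to −0.34, Csmd3 to 0.041 (a change of sign) and the median of genes over 500 kb to −0.088.

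In an alternative fit, samples with the same replicate number were treated as pairs, which the main fit did not do. With the replicate number as a block, edgeR called 0 genes, as it did without, so no call could be lost. DESeq2, the source of the calls, was not fitted with the block. The log2 fold changes with the block were −0.25 for Astn1, −0.95 for Astn2, −0.76 for Csmd1, −0.26 for Csmd2 and −0.32 for Csmd3. The block together with the removal of the span trend gave −0.62 for Astn2, −0.36 for Csmd1, 0.0402 for Csmd3 and −0.0838 for the genes over 500 kb.

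Leaving out 1 sample at a time gave −0.39 to −0.09 for Astn1, −0.999 to −0.87 for Astn2, −0.88 to −0.64 for Csmd1, −0.47 to 0.0016 for Csmd2, −0.40 to −0.25 for Csmd3 and −2.56 to −1.83 for Snhg11. The medians of lists ranged from −0.09 to 0.16 (CUB and sushi relatives), −0.12 to 0.13 (complement regulators), 0.22 to 0.69 (complement components; lowest without Control-ASO replicate 1, highest without Control-ASO replicate 2), 0.0389 to 0.39 (MACPF relatives; lowest without Snhg11-ASO replicate 1, highest without Control-ASO replicate 3), −0.07 to −0.02 (migration) and −0.43 to −0.34 (genes over 500 kb). Where a call or a size moved, the cause was not tested.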

Other observations

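Complement is the system that Csmd1 is known to restrain. Of 19 genes for complement components and receptors, 17 were tested, 14 of them higher and 3 lower in Snhg11-ASO, with a median log2 fold change of 0.43 (0.01 for all genes). EdgeR called 0 of them, with 6 higher and 0 lower at an unadjusted p under 0.05, beside 3.68% and 4.43% of all genes. DESeq2 called 2 higher, C1ra (adjusted p = 0.033) and C3ar1 (adjusted p = 0.036), beside 0.496% of all genes. Their log2 fold changes in edgeR were 1.42 (SE 0.38) and 1.01 (SE 0.27). C1ra, a protease of the first complement component, was low throughout, at 1.80, 1.04 and 2.61 CPM in Control-ASO and 6.43, 4.16 and 4.03 CPM in Snhg11-ASO. C3ar1, the receptor for the C3a fragment, was at 4.66, 10.02 and 7.01 CPM in Control-ASO and 15.5, 14.2 and 14.0 CPM in Snhg11-ASO, with no overlap. C1qa (0.50), C3 (1.48) and C4b (0.43) overlapped between the groups, C3 reaching 26.2 CPM in Snhg11-ASO replicate 1 and 6.87 to 7.80 CPM in the other two. The summed level of 5 microglial markers, 160 to 278 CPM in Control-ASO and 74.6 to 256 CPM in Snhg11-ASO, overlapped too, with 4 markers lower and 1 higher. Their part in these values was not tested, and neither was a link between these values and the lower level of Csmd1.

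Of 12 complement regulators, most with sushi domains, 10 were tested, with a median of 0.05, and edgeR and DESeq2 called 0, with 1 higher and 0 lower at an unadjusted p under 0.05 in edgeR (3.68% and 4.43% of all genes). Serping1, the inhibitor of the first complement proteases, had a log2 fold change of 0.87 (SE 0.30) and groups that did not overlap, while Cr1l (−0.05) and Cd55 (0.09), which hold complement in check on cell surfaces, overlapped. Of 30 genes of neuronal migration, the process Astn1 is known for, all were tested, with a median of −0.04, and edgeR called 0, with 4 lower and 3 higher at an unadjusted p under 0.05 (4.43% and 3.68% of all genes). DESeq2 called 1, Erbb4 (adjusted p = 2.4e-04, beside 0.796% of all genes called lower), with a log2 fold change of −0.82 (SE 0.13) in edgeR. Erbb4 is a neuregulin receptor that spans 1076 kb and went from 125 ± 14.8 to 71.2 ± 9.33 CPM (SD, n = 3 each). Cdh2 (0.01), the cadherin that joins Astn1 in neuron-glia adhesion, and Dab1 (−0.12), which spans 1126 kb, overlapped. Reln, the secreted guide of migrating neurons, was at 162, 121 and 139 CPM in Control-ASO and 90.5, 91.2 and 108 CPM in Snhg11-ASO. It was apart (−0.54, SE 0.13 in edgeR) but not called by DESeq2 (adjusted p = 0.053). Groups were apart and lower for 6 of the 30, Erbb4 and Reln among them, and apart and higher for 4 (7.7% and 7.73% of all genes). The other lower ones were Dcx (−0.53), Ntrk2 (−0.27), Cdk5 (−0.16) and Myh10 (−0.11). The higher ones were Cxcr4 (0.80), Flna (0.69), Bdnf (0.53) and Itgb1 (0.39). These lower and higher genes were named after their values were seen.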
